A study of Mus musculus with 16 samples.

Results

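The genes described here encode the chains of collagen, measured as RNA in the lungs of female mice. They were taken as all genes on the array whose symbol reads Col, a number, the letter a and a number. The array carried 69 such probes for 44 genes. A gene was kept where a probe cleared the scanner's background flag on 4 or more of the 16 arrays, and its brightest such probe stood for it, which left 35 of the 44 genes among 25606 genes tested. Of these 35, 29 were well above background on all 16 arrays and 6 on fewer. The 9 genes left out were Col2a1, Col6a4, Col6a5, Col6a6, Col9a3, Col10a1, Col11a1, Col19a1 and Col24a1.

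Collagens are the main structural proteins of the extracellular matrix, and each molecule is a triple helix of chains in which glycine recurs in a short repeat. Fibrillar collagens form the tensile fibrils of airways, vessels and the interstitium. Type IV collagen forms the sheet of basement membranes, on which the alveolar epithelium and the capillary endothelium rest. FACIT collagens decorate the surface of fibrils, network collagens form short-chain lattices, type VI collagen forms beaded filaments beside cells, and transmembrane collagens stay anchored in the cell surface. In the lung, fibroblasts are the main source of fibrillar collagen, whereas epithelial, endothelial and mesenchymal cells all contribute to type IV collagen.

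The repeated glycine is visible in the probes that lie in the coding sequence of the helix. Of the 69 probes, 3 held a run of at least 5 codons of the form GGN, the codons of glycine, in 1 frame with 2 other codons between each and the next. The probes of Col16a1 (mm9, chr4:129756457-129756516, plus strand) and Col25a1 (mm9, chr3:130270497-130270556, plus strand) are shown as examples, with the glycine codons of the run in capitals, since the second of them gave an outlying value described further on.
Col16a1 helix probe: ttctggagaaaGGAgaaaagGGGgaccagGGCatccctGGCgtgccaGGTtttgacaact
Col25a1 helix probe: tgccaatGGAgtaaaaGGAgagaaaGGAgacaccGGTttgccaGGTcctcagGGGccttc

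The lungs came from 5 groups, with 1 array per sample. All ARF-DTR mice carry a transgene in which the Arf promoter drives a diphtheria toxin receptor, so that diphtheria toxin (DT) acts on cells that use this promoter. There were 4 samples from 12-month-old ARF-DTR mice given DT, 4 from 12-month-old ARF-DTR mice given saline (PBS) and 4 from 2-month-old ARF-DTR mice that were not injected. Wild type (WT) mice were all aged 12 months, with 2 samples given DT and 2 given PBS. Injections into the peritoneum were spaced 2 weeks apart over 1 month, with DT at 50 microgram per kg body weight. Age therefore goes together with injection in the comparison of 12-month PBS with 2-month mice. Whether each sample is its own mouse is not in the labels, and the p-values rest on the spread between samples, which could be technical.

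The arrays filled 2 slides of 8. The DT samples of ARF-DTR mice and all WT samples were on slide 2, and the other ARF-DTR samples, with PBS and at 2 months, were on slide 1. The 75th percentile of the probe signals lay between 613 and 725 intensity units on slide 2 and between 873 and 1088 on slide 1. The comparison of DT with PBS in ARF-DTR mice crossed the slides, so slide and treatment cannot be told apart there. Each array had 55.6% to 67.0% of its probes well above background. All 10 alveolar type 1 and type 2 cell markers examined were measured above background, with a mean level of 5.80 to 6.20 across the 16 arrays.

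All levels given here are log2 signal minus the 75th percentile of the array, and a change is the difference of mean levels with its standard error, shown as ±, from a limma fit over all 16 arrays and all 25606 genes. A gene is said to have risen or fallen where its Benjamini-Hochberg adjusted p over all genes was under 0.05. The level of a probe also depends on its own sequence, so levels are compared between samples and not between genes. In RNA of whole lung, fewer cells of a type and less RNA per cell cannot be told apart. The number of arrays limits the precision of every value.

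At 12 months, 11 collagen genes fell and 1 rose in ARF-DTR lungs with PBS relative to the 2-month lungs, and 23 of the 35 did not pass the test. The genes that fell were Col1a1, Col1a2 and Col3a1 of the fibrillar class, Col4a1, Col4a2, Col4a3, Col4a4 and Col4a5 of basement membranes, and Col6a1, Col16a1 and Col17a1. The only one to rise was Col8a2, a network collagen. Of all genes tested, 6.13% were called in this comparison, 2.73% higher and 3.41% lower, against 31.4% of the collagen genes lower. The median change of the collagen genes was -0.34, against -0.03 for all genes. The groups did not overlap for 18 of the 35 collagen genes, against 13% of all genes. Both groups lay on slide 1. Without 2-month replicate 1, or without PBS replicate 4, 7 collagen genes fell.

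**Figure D1:**
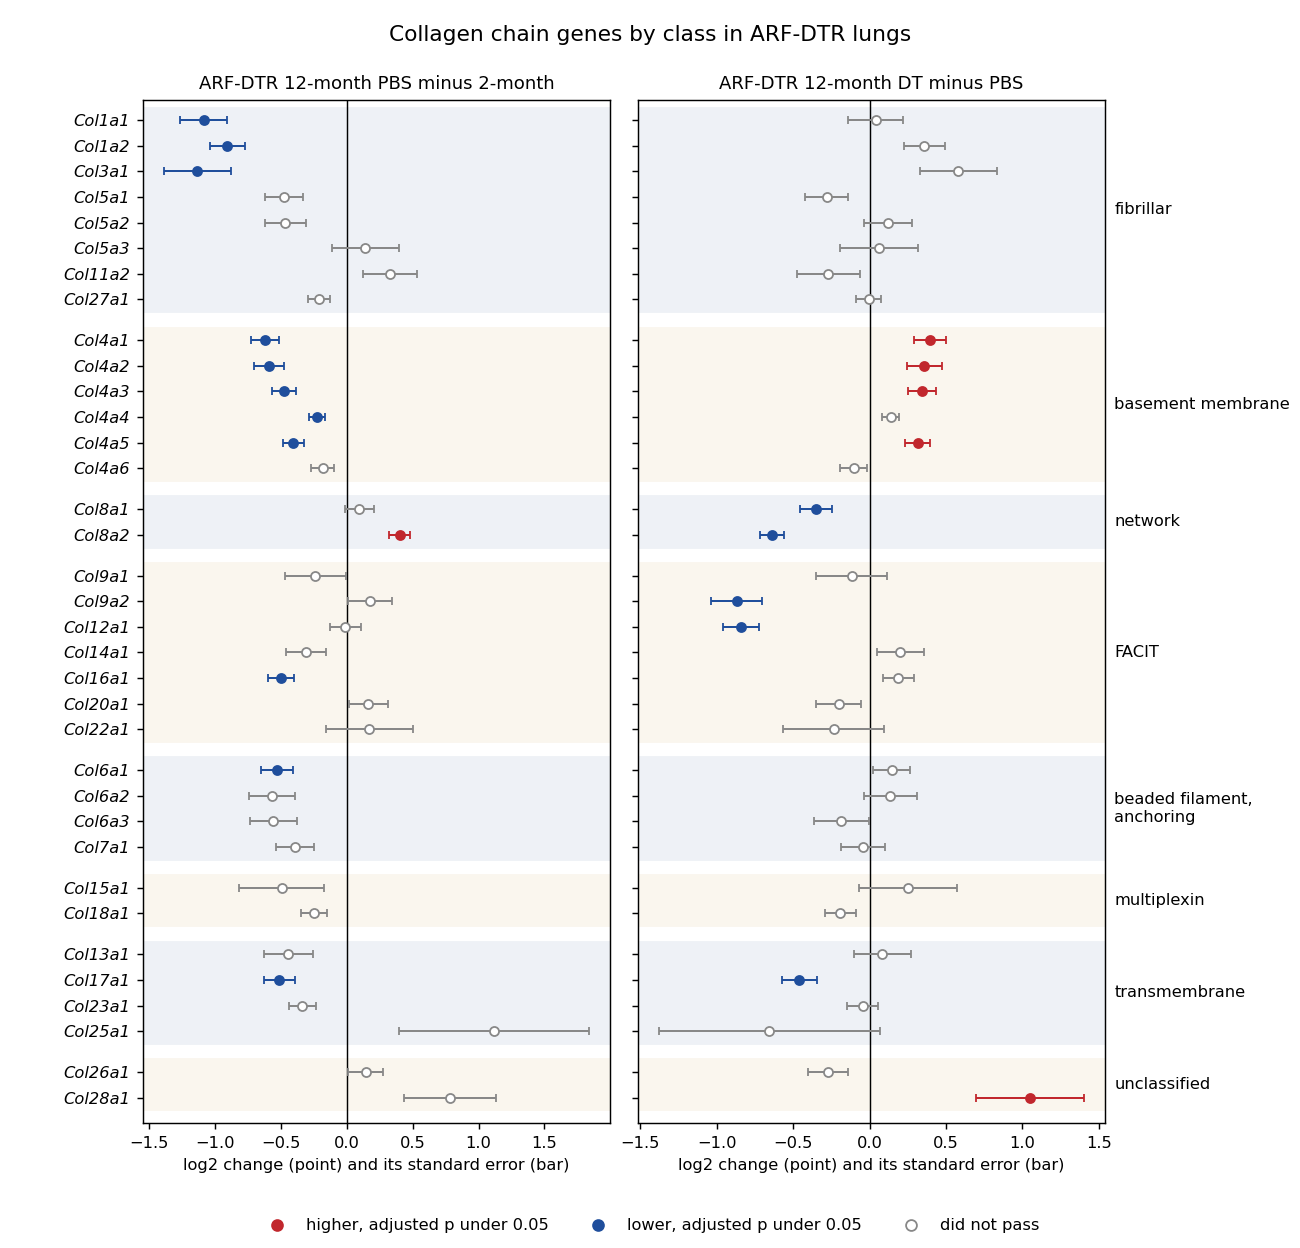
Log2 change of the 35 collagen genes, grouped by class, for 12-month PBS minus 2-month ARF-DTR lungs (left, 4 samples each) and 12-month DT minus PBS ARF-DTR lungs (right, 4 samples each). Points are changes from the limma fit, bars are standard errors, and filled points passed an adjusted p of 0.05. On the left 11 genes are lower and 1 higher, and on the right 5 are higher and 5 lower.

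Among the fibrillar collagens 3 of 8 measured genes fell with age and 0 rose, with a median change of -0.47. Col1a1, which encodes a chain of type I collagen, the main collagen of lung fibrils, had levels of 3.05, 2.97, 2.73 and 2.54 in 12-month PBS lungs, against 4.27, 3.73, 3.73 and 3.90 in 2-month lungs. All 4 older samples were below all 4 younger ones, and the probe lies on chr11:94813115-94813174 of mm9. Col1a1 fell by 1.09 ± 0.18, to 0.471 of its 2-month signal (adjusted p = 0.00421).

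Col1a2, the partner chain in type I collagen, had levels of 4.56, 4.45, 4.16 and 4.11 in 12-month PBS lungs, against 5.48, 5.09, 5.06 and 5.26 in 2-month lungs. The groups again did not overlap, and Col1a2 fell by 0.90 ± 0.14 (adjusted p = 0.00189). Type I collagen joins these chains in a fixed ratio. The log2 difference between the Col1a1 and Col1a2 probes within an array lay between -1.58 and -1.43 in 12-month PBS lungs and between -1.37 and -1.21 in 2-month lungs, without overlap, so the Col1a1 signal was the more reduced of the pair. The size of that difference itself carries no meaning, since the probes differ.

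Col3a1 encodes type III collagen, which forms mixed fibrils with type I. Its levels were 4.11, 3.84, 3.27 and 3.45 in 12-month PBS lungs, against 5.27, 4.44, 4.72 and 4.77 in 2-month lungs. The groups did not overlap, but the spread within each was wider than for the type I chains, with an SD of 0.38 in 12-month PBS lungs and 0.34 in 2-month lungs. Col3a1 fell by 1.13 ± 0.25 (adjusted p = 0.0189), and the call was lost without 2-month replicate 1, PBS replicate 3 or PBS replicate 4, with adjusted p of 0.0586, 0.0589 and 0.059.

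The remaining fibrillar genes did not pass with age. Col5a1 and Col5a2, chains of type V collagen that nucleates type I fibrils, changed by -0.48 ± 0.14 (adjusted p = 0.068) and -0.46 ± 0.16 (adjusted p = 0.108). For each of them the older and younger samples did not overlap. Col27a1 changed by -0.21, Col5a3 by 0.14 and Col11a2 by 0.33, all with adjusted p above 0.05.

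**Figure D2:**
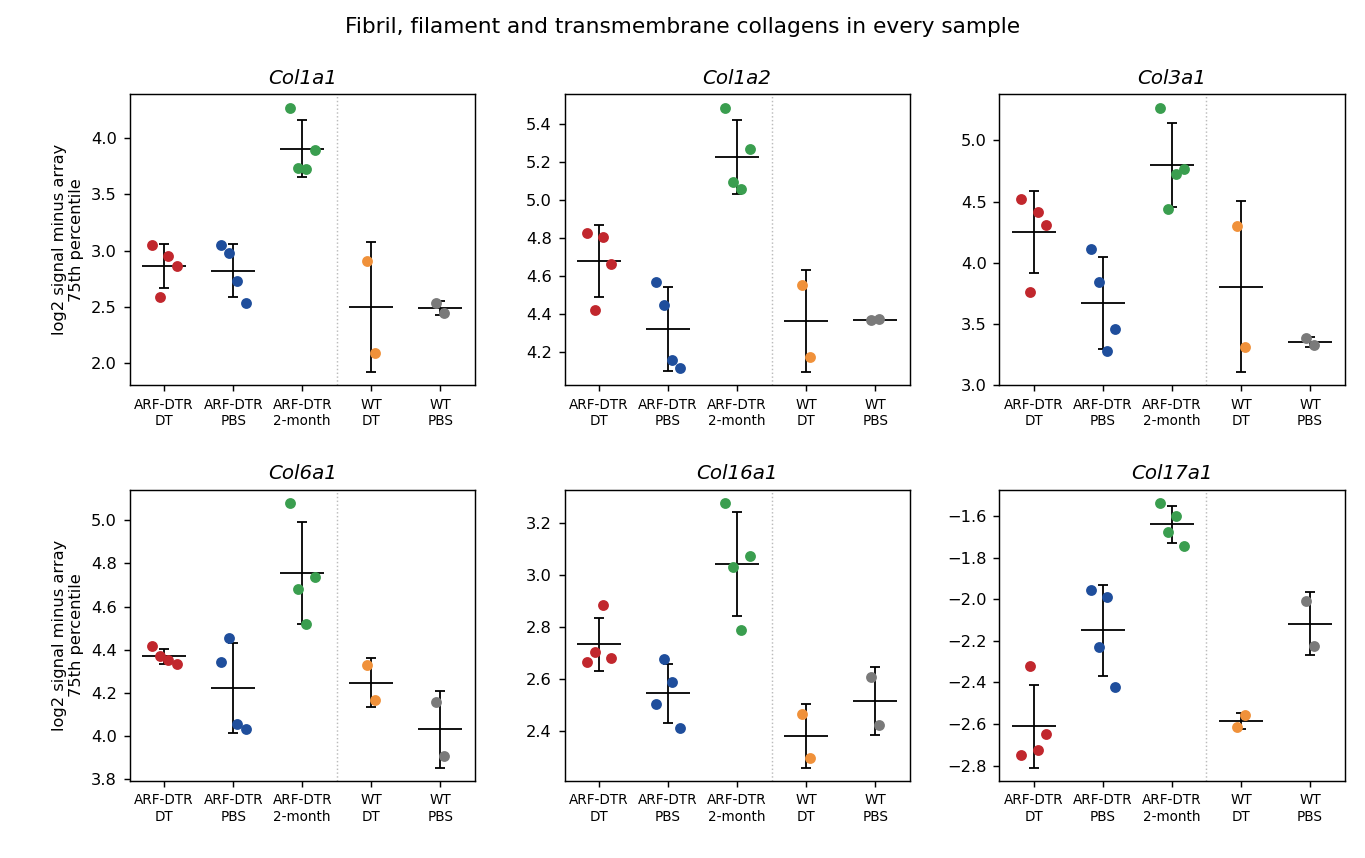
Level of 6 collagen genes in every sample (points), with the mean and SD of each group (bars), in log2 signal minus the array 75th percentile. The dotted line separates ARF-DTR from WT groups, with 4 samples in each ARF-DTR group and 2 in each WT group. For Col1a1, Col1a2 and Col3a1 all 12-month PBS samples lie below all 2-month samples.

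Of the 6 type IV chains, 5 fell with age, 0 rose, and the median change was -0.44. Col4a1 and Col4a2, which together form the type IV collagen present in nearly all basement membranes, are transcribed in opposite directions from neighbouring start sites. In the RefSeq windows around their starts (GRCm38.p6, 250 bases before to 50 after each start), the start sites lie 21 bases apart on chromosome 8 and the windows share 78 bases, chr8:11312777-11312854. The 2 windows are shown because these genes were called in the same direction with age, with DT and against WT PBS lungs, with the shared bases in capitals, each on the strand of its own gene. The Col4a2 window is chr8:11312555-11312854 on the plus strand, and the Col4a1 window is chr8:11312777-11313076 on the minus strand.
Col4a2 start region: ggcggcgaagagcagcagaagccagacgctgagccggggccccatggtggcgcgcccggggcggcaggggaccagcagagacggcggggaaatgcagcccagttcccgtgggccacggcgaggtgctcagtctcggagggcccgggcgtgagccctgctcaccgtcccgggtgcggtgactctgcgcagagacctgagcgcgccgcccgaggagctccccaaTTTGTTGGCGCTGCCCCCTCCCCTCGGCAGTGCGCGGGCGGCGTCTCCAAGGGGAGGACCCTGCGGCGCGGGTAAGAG
Col4a1 start region: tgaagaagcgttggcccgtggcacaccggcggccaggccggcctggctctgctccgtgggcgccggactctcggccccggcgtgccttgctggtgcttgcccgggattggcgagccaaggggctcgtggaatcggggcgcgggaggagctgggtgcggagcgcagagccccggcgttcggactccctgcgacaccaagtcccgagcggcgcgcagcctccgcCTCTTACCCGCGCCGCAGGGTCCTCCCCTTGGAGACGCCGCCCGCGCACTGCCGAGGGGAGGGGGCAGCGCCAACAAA

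Col4a1 had levels of 3.12, 3.24, 3.05 and 2.88 in 12-month PBS lungs, against 3.94, 3.60, 3.53 and 3.69 in 2-month lungs. Col4a2 had levels of 3.24, 3.48, 3.16 and 2.89 in 12-month PBS lungs, against 3.98, 3.73, 3.68 and 3.74 in 2-month lungs. Neither gene overlapped between the groups. Col4a1 fell by 0.62 ± 0.11 (adjusted p = 0.00498) and Col4a2 by 0.59 ± 0.11 (adjusted p = 0.00865).

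Col4a3, Col4a4 and Col4a5 encode the chains of the second type IV network, which in the lung belongs to the alveolar basement membrane. Col4a3 had levels of 0.91, 0.86, 0.89 and 0.77 in 12-month PBS lungs, against 1.52, 1.26, 1.22 and 1.33 in 2-month lungs. Col4a5 had levels of 1.79, 1.87, 1.78 and 1.82 in 12-month PBS lungs, against 2.34, 2.17, 2.08 and 2.30 in 2-month lungs. The older samples of both genes lay close together and below every younger sample. Col4a3 fell by 0.48 ± 0.09 (adjusted p = 0.00868) and Col4a5 by 0.41 ± 0.08 (adjusted p = 0.00972).

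Col4a4 had levels of 1.55, 1.76, 1.66 and 1.53 in 12-month PBS lungs, against 1.87, 1.90, 1.81 and 1.81 in 2-month lungs, and fell by 0.23 ± 0.06 (adjusted p = 0.0351). Among the 12 collagen genes called with age this was the smallest change. The call was lost in 11 of 27 alternatives, among them those without 2-month replicate 1, 2 or 4 or without PBS replicate 1, 3 or 4, with adjusted p up to 0.129. Of 3 kept Col4a4 probes, the one used changed by -0.23 and the others by -0.52 and -0.37. Col4a6, the chain that pairs with Col4a5 in smooth muscle basement membranes, changed by -0.18 (adjusted p = 0.268), and its start site lies 1343 bases from that of Col4a5 on chromosome X.

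**Figure D3:**
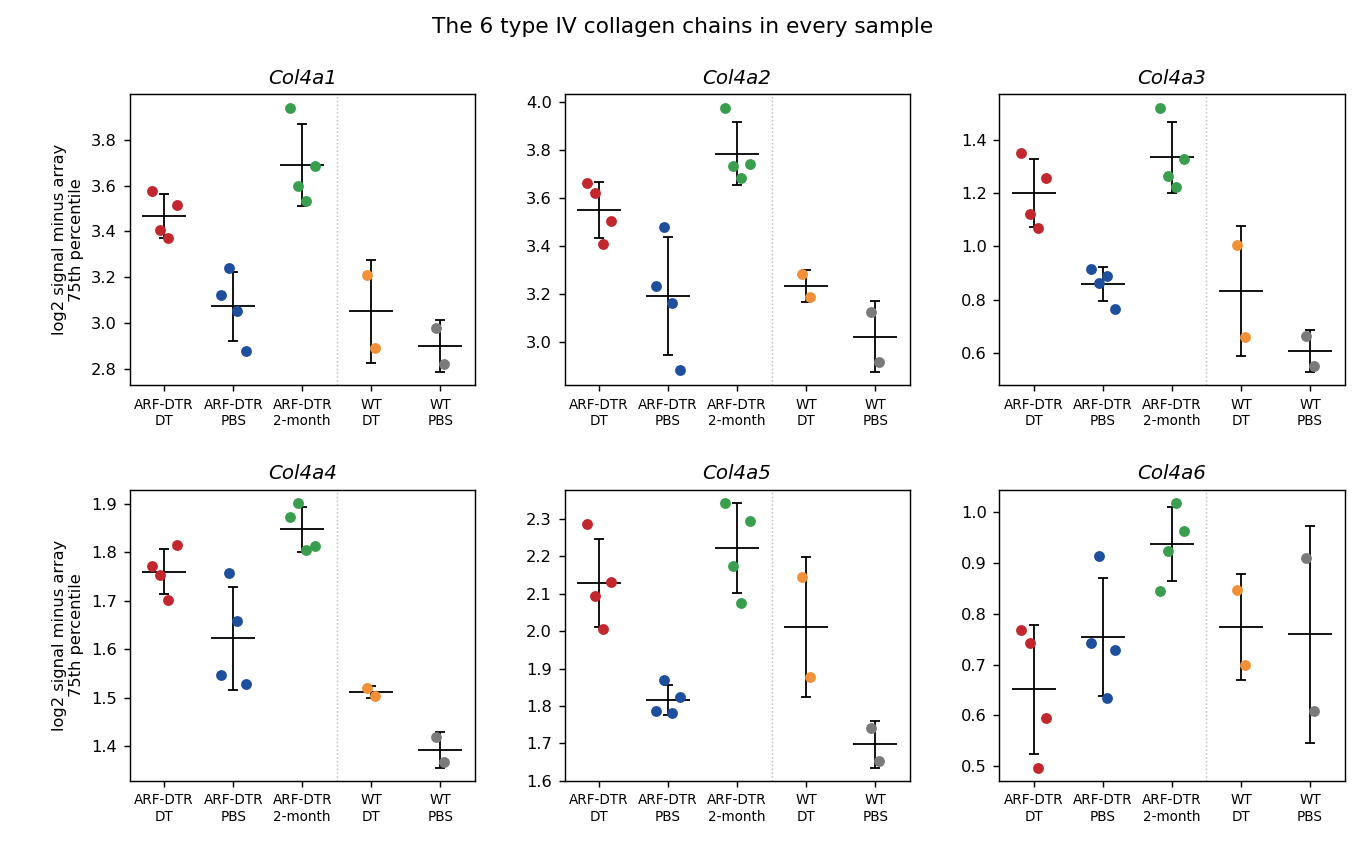
Level of the 6 type IV collagen chains in every sample (points), with the mean and SD of each group (bars), in log2 signal minus the array 75th percentile. The dotted line separates ARF-DTR from WT groups, with 4 samples in each ARF-DTR group and 2 in each WT group. Col4a1, Col4a3 and Col4a5 show all 12-month PBS samples below both the DT and the 2-month samples of ARF-DTR mice.

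The 4 measured genes of the beaded filament and anchoring class had a median change of -0.54 with age, and 1 of them passed. Col6a1, a chain of the type VI collagen that links cells to the interstitial matrix, had levels of 4.35, 4.45, 4.06 and 4.03 in 12-month PBS lungs, against 5.08, 4.68, 4.52 and 4.74 in 2-month lungs. It fell by 0.53 ± 0.12 without overlap (adjusted p = 0.0213). The call was lost without 2-month replicate 1 or 4 or PBS replicate 3 or 4 (adjusted p of 0.0504 to 0.0676) and in the fit on slide 1 alone (0.09). Col6a2 changed by -0.57 (adjusted p = 0.0779) and Col6a3 by -0.56 (adjusted p = 0.0868), also without overlap, and Col7a1, the anchoring fibril collagen, by -0.39.

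Of 7 FACIT collagens 1 fell with age and the median change was -0.01. Col16a1, a minor FACIT collagen of fibroblasts and smooth muscle cells, had levels of 2.50, 2.68, 2.59 and 2.41 in 12-month PBS lungs, against 3.27, 3.03, 2.79 and 3.07 in 2-month lungs. It fell by 0.50 ± 0.10 without overlap (adjusted p = 0.0111), and adjusted p was 0.0506 on slide 1 alone. Its 3 kept probes changed by -0.50, -0.53 and -0.38, the last of these being the helix probe shown above. Col12a1 changed by -0.01 and Col14a1, which binds decorin on fibrils, by -0.31, and neither passed.

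Among the transmembrane collagens 1 of 4 fell. Col17a1, a hemidesmosome component of basal epithelial cells, had levels of -1.96, -2.23, -1.99 and -2.42 in 12-month PBS lungs, against -1.54, -1.68, -1.60 and -1.74 in 2-month lungs. It fell by 0.51 ± 0.12 without overlap (adjusted p = 0.0206), and the call was lost without 2-month replicate 1 (adjusted p = 0.061) or PBS replicate 4 (0.0589). Col13a1 and Col23a1 changed by -0.44 and -0.34 without passing. The multiplexins Col15a1 and Col18a1 changed by -0.49 and -0.25, and neither passed.

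Col8a2 ran the other way. It encodes a short-chain network collagen known from vessel walls and from the corneal endothelium, and it had levels of 0.22, 0.38, 0.44 and 0.35 in 12-month PBS lungs, against -0.14, 0.0067, 0.012 and -0.095 in 2-month lungs. Every older sample was above every younger one, and Col8a2 rose by 0.40 ± 0.08, or 1.32-fold (adjusted p = 0.0101). A second Col8a2 probe, well above background on 11 arrays, changed by 0.39 (adjusted p = 0.441), and with the probes averaged the adjusted p was 0.0945. Its partner chain Col8a1 changed by 0.10 (adjusted p = 0.674).

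In ARF-DTR mice at 12 months, 5 collagen genes were higher and 5 lower in DT than in PBS lungs, and 25 of 35 did not pass. Of all genes tested 29.3% were called here, 15.8% higher and 13.4% lower, so the collagen share of 28.6% was near that of all genes. The median change was -0.01 for collagen genes and 0.00 for all genes. The classes differed within that balance. Of the 6 basement membrane genes 4 rose and 0 fell (median 0.33), and both network genes fell (median -0.49). Of 7 FACIT genes 2 fell (median -0.20, but 0.14 with normexp background correction). Of 8 fibrillar genes 0 rose and 0 fell (median 0.05). Of those 8, 2 were at an unadjusted p under 0.05, against 10519 of all 25606 genes. When arrays were scaled to their medians the change of all genes had a median of 0.18, with 8673 of 25606 genes called higher and 1751 lower. Collagen calls then stood at 9 higher and 3 lower. The fibrillar genes Col1a2 and Col3a1 were then among the higher ones, at 0.54 and 0.76 (adjusted p = 0.0158 and 0.0376). Col1a2 also passed with an intensity trend and robust variance, at 0.36 (adjusted p = 0.0463). With normexp the collagen calls stood at 8 higher and 4 lower, against 7175 higher and 2525 lower among all 25606 genes. Scaling shifts every gene of an array alike, so differences from the median of all genes were the same under both scalings.

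Col4a1 had levels of 3.58, 3.41, 3.37 and 3.52 in DT lungs, all above the highest PBS lung of 3.24. It rose by 0.40 ± 0.11, or 1.32-fold (adjusted p = 0.0146), with an adjusted p of 0.0505 after quantile normalization. Col4a2 had levels of 3.66, 3.62, 3.41 and 3.50 in DT lungs, where the third lay below the highest PBS lung of 3.48. It rose by 0.36 ± 0.11 (adjusted p = 0.0313). The Col4a2 call was lost in 8 of 26 alternatives, among them those without PBS replicate 1, 3 or 4 or without DT replicate 1, 2 or 4, with adjusted p up to 0.132.

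Col4a3 had levels of 1.35, 1.12, 1.07 and 1.26 in DT lungs, above the highest PBS lung of 0.91, and rose by 0.34 ± 0.09 (adjusted p = 0.0145). Col4a5 had levels of 2.29, 2.09, 2.01 and 2.13 in DT lungs, above the highest PBS lung of 1.87, and rose by 0.31 ± 0.08 (adjusted p = 0.0113). Both passed in all 26 alternatives run. Scaled to array medians the changes of Col4a2, Col4a3 and Col4a5 were 0.54, 0.52 and 0.49. Col4a4 changed by 0.14 (adjusted p = 0.0878) and Col4a6 by -0.10 (adjusted p = 0.395). When all kept probes were tested, a second Col4a6 probe changed by -0.51 (adjusted p = 0.00969). The other Col4a4 probes changed by 0.42 (adjusted p = 0.0136) and by 0.03 (adjusted p = 0.839), so the probes of these genes disagree.

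Beside the type IV genes, 8 of 10 alveolar type 1 and 2 cell markers rose with DT and 0 fell, with a median change of 0.33, while 15.8% of all genes were called higher. The surfactant genes Sftpa1 and Sftpc rose by 0.65 and 0.50, and the alveolar type 1 water channel gene Aqp5 by 0.32. Sftpc and Pdpn followed the slide, with every slide 2 array, WT arrays included, above every slide 1 array. Sftpc lay between 9.09 and 9.35 on slide 2 and between 8.55 and 8.95 on slide 1. The mean level of the 10 markers ran between 6.12 and 6.20 in DT lungs, against 5.80 and 5.90 in PBS lungs. Of 9 endothelial markers 2 rose and 1 fell, or 33.3%, near the 29.3% of all genes called, and Kdr, the one that fell, was lower on every slide 2 array than on every slide 1 array. Of 12 fibroblast markers 4 rose and 2 fell (median -0.01). Dpt, the dermatopontin gene, had the highest change at 0.87, and Pi16, which fell, the lowest at -1.002. Fgf10 also fell, at -0.28, and was lower on every slide 2 array than on every slide 1 array. The mean level of the 12 fibroblast markers ran between 2.98 and 3.10 in DT lungs, against 2.86 and 3.21 in PBS lungs. Of 6 mesothelial markers 2 rose and 0 fell, Msln by 0.89 and Krt19 by 0.71, and all 6 were above 0 (median 0.70). Their mean level ran between 1.43 and 2.43 in DT lungs, against 0.91 and 1.42 in PBS lungs, and Krt19 separated the slides. The 8 cardiac muscle markers were all below 0 (median -1.23) and 1 fell. The part of these cell types in the type IV changes was not tested.

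Both network genes fell with DT. Col8a2 had levels of -0.12, -0.22, -0.43 and -0.39 in DT lungs, against 0.22, 0.38, 0.44 and 0.35 in PBS lungs, without overlap. It fell by 0.64 ± 0.08, to 0.642 of the PBS signal (adjusted p = 0.000249), and passed in all 26 alternatives run. Col8a1 had levels of -2.43, -2.62, -2.80 and -2.44 in DT lungs, against -2.34, -2.12, -2.22 and -2.21 in PBS lungs. It fell by 0.35 ± 0.11 (adjusted p = 0.0267), but changed by -0.13 with normexp (adjusted p = 0.182) and by -0.17 with median scaling (adjusted p = 0.224), and the call was also lost with quantile normalization (adjusted p = 0.112) and without PBS replicate 2, 3 or 4 or DT replicate 2 or 3. Beside the network genes, 7 of 8 smooth muscle markers fell with DT and 0 rose, while 13.4% of all genes were called lower. They included Acta2 by 0.71, Tagln by 0.58 and Synpo2 by 0.84. Lmod1, also among them, followed the slide, at -4.72 to -4.11 on slide 2 and -3.91 to -2.39 on slide 1. The mean level of the 8 markers ran between 1.32 and 1.66 in DT lungs, against 1.96 and 2.49 in PBS lungs. The part of these markers in the Col8a1 and Col8a2 changes was not tested.

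Col12a1, a FACIT collagen of tendon and other dense connective tissue, had levels of -0.31, -0.02, -0.44 and -0.42 in DT lungs, against 0.57, 0.56, 0.44 and 0.62 in PBS lungs, and fell by 0.84 ± 0.12 (adjusted p = 0.000525). Col9a2, a chain of the type IX collagen of cartilage, had levels of -4.30, -3.87, -3.87 and -3.87 in DT lungs, against -2.71, -3.34, -3.13 and -3.27 in PBS lungs, and fell by 0.87 ± 0.17 (adjusted p = 0.0027). With normexp background correction the Col9a2 change was -0.30 (adjusted p = 0.042). For these genes the difference followed the slide. All 8 arrays of slide 2, DT-treated or not, lay below all 8 arrays of slide 1, with Col12a1 between -0.79 and -0.02 on slide 2 and between 0.33 and 0.65 on slide 1, and Col9a2 between -4.30 and -3.86 on slide 2 and between -3.56 and -2.71 on slide 1. No other collagen gene separated the slides in this way. Of the 6 cartilage markers measured 0 passed in limma with DT, with 0 at an unadjusted p under 0.05, and Matn1, Matn3 and Cnmd were not well above background.

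Col17a1 had levels of -2.75, -2.32, -2.73 and -2.65 in DT lungs, against -1.96, -2.23, -1.99 and -2.42 in PBS lungs. The second DT sample overlapped the lowest PBS sample, and Col17a1 fell by 0.46 ± 0.12 (adjusted p = 0.0107). The change was -0.21 with normexp (adjusted p = 0.0674) and -0.28 with median scaling (adjusted p = 0.081). Col17a1 was thus lower in DT than in PBS lungs and lower in PBS than in 2-month lungs, while Col4a1, Col4a2, Col4a3 and Col4a5 passed as lower in PBS than in 2-month lungs and as higher in DT than in PBS lungs. These comparisons share the PBS samples.

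Col28a1, a collagen with von Willebrand factor A domains known from peripheral nerve, was dim. It was well above background on all 4 DT arrays, on 3 of 4 PBS arrays, on 0 of 4 2-month arrays and on 0 of 4 WT arrays. Its levels were -4.19, -4.21, -4.07 and -4.04 in DT lungs, against -4.83, -5.42, -5.46 and -5.01 in PBS lungs and -5.56, -6.63, -6.06 and -5.60 in 2-month lungs. The groups did not overlap. Col28a1 was 2.07-fold higher in DT than in PBS lungs (adjusted p = 0.0392), a call lost in 8 of 25 alternatives, among them each single array left out of those groups except PBS replicate 1, and its change of 1.05 was 0.68 with normexp. Relative to the 2-month lungs it was, in the main processing, at least 3.56-fold higher in DT lungs (adjusted p = 0.00189). Such a bound raises dim values to the lowest signal well above background on that array. The 2-month signals already lay above that floor, so the bound equals the fitted change of 1.83. It does not hold with normexp, where the change was 0.80. Col28a1 entered the tests only through the 12-month ARF-DTR arrays, where it was measured. The 3 PBS arrays alone would not have met the filter of 4 arrays. Its calls for DT against PBS, and against the 2-month and WT lungs, are thus not independent of that filter. With no filter on dim probes the adjusted p for DT against PBS was 0.0586.

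**Figure D4:**
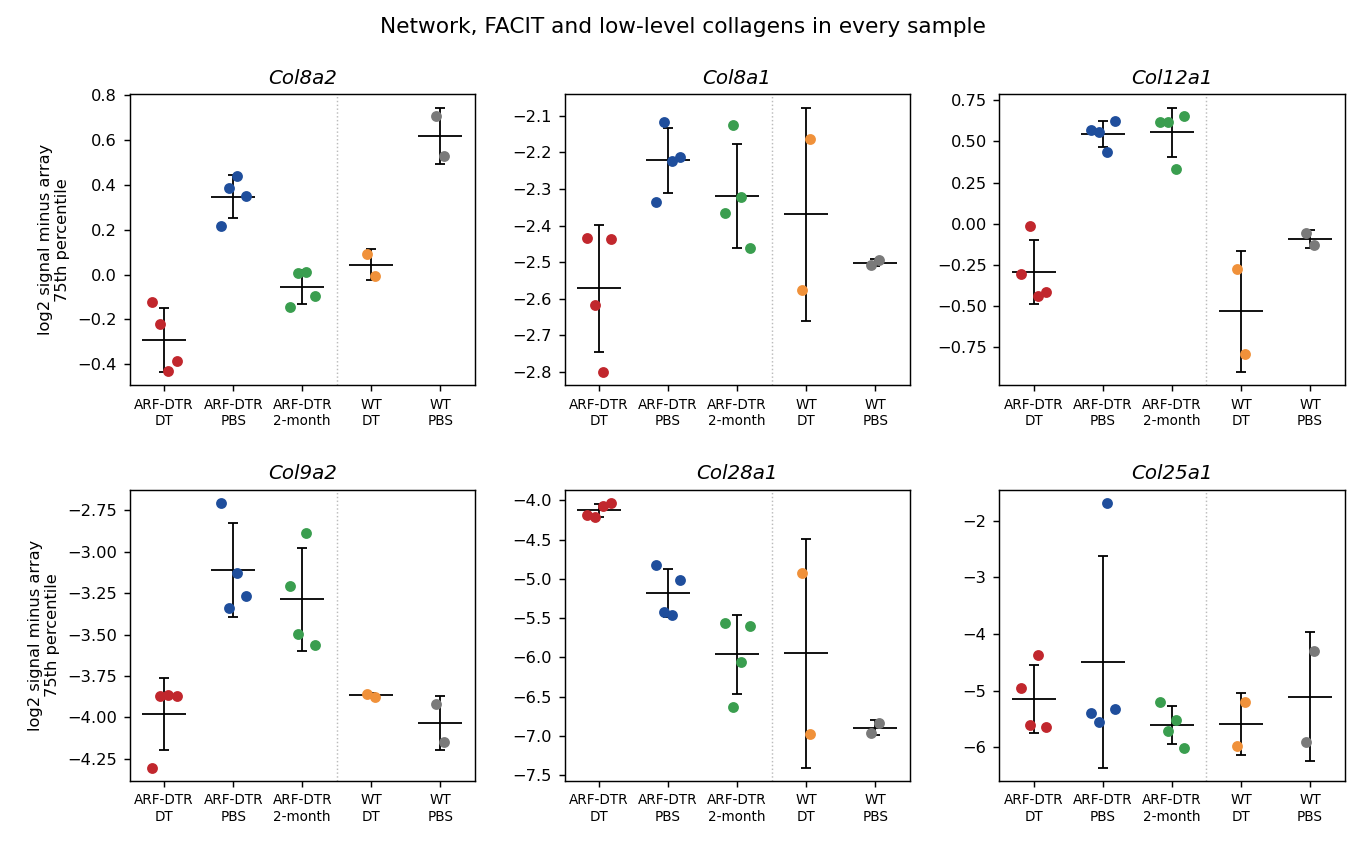
Level of 6 network, FACIT and low-level collagen genes in every sample (points), with the mean and SD of each group (bars), in log2 signal minus the array 75th percentile. The dotted line separates ARF-DTR from WT groups, with 4 samples in each ARF-DTR group and 2 in each WT group. Col12a1 and Col9a2 are lower in the DT and WT groups, all on slide 2, and PBS replicate 3 stands apart for Col25a1 at -1.69.

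The DT samples of ARF-DTR mice shared slide 2 with the WT samples, so they were also compared with WT PBS lungs, which differ from them in genotype and in treatment. Here 6 collagen genes were higher and 1 lower. Of all genes 5.49% were called, 2.12% higher and 3.37% lower. The higher genes were Col4a1, Col4a2, Col4a3, Col4a4, Col4a5 and Col28a1, the last subject to the filter described above, and the lower one was Col8a2. All 8 fibrillar genes were above 0 (median 0.34), while 50.6% of all genes were below 0. Of these 8, Col11a2 was well above background on 0 of the WT arrays, so it entered the tests only through ARF-DTR arrays. In limma 0 of 8 passed, with 2 of 8 at an unadjusted p under 0.05, against 5688 of all 25606 genes.

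Col4a4 had levels of 1.77, 1.75, 1.70 and 1.82 in DT-treated ARF-DTR lungs, against 1.42 and 1.37 in WT PBS lungs. The DT-treated ARF-DTR samples given above lay between 3.37 and 3.58 for Col4a1, against 2.98 and 2.82 in WT PBS lungs. Col4a2 lay between 3.41 and 3.66 in DT-treated ARF-DTR lungs, against 3.13 and 2.92 in WT PBS lungs. None of these groups overlapped. Col4a3 lay between 1.07 and 1.35 in DT-treated ARF-DTR lungs, against 0.66 and 0.55 in WT PBS lungs, and Col4a5 between 2.01 and 2.29, against 1.74 and 1.65, again without overlap. In DT-treated ARF-DTR lungs, relative to WT PBS lungs, the changes were 0.57 ± 0.13 for Col4a1, 0.53 ± 0.14 for Col4a2, 0.59 ± 0.11 for Col4a3, 0.37 ± 0.07 for Col4a4 and 0.43 ± 0.10 for Col4a5. Adjusted p ran from 0.013 for Col4a3 to 0.0456 for Col4a2. These 5 calls were lost without WT PBS replicate 1 or WT PBS replicate 2, which leaves 1 WT PBS sample, assumed to vary like the other groups. Over these 2 fits the changes ranged over 0.49 to 0.65 for Col4a1, 0.42 to 0.63 for Col4a2, 0.53 to 0.65 for Col4a3, 0.34 to 0.39 for Col4a4 and 0.39 to 0.48 for Col4a5. The calls of Col4a1, Col4a2 and Col4a5 were also lost without DT replicate 4, and all 5 in the fit on slide 2 alone, where 2 collagen genes passed, Col28a1 higher and Col8a2 lower. In all, the Col4a2 call was lost in 16 of 27 alternatives. On this slide 0 of 10 alveolar type 1 and 2 cell markers passed in limma, with a median change of 0.15. Of them 4 were at an unadjusted p under 0.05, against 5688 of all 25606 genes.

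Col8a2 lay between -0.43 and -0.12 in DT-treated ARF-DTR lungs, against 0.71 and 0.53 in WT PBS lungs, without overlap, and fell by 0.91 ± 0.10 (adjusted p = 0.000909). It passed in all 27 alternatives run. Col28a1 lay between -4.21 and -4.04 in DT-treated ARF-DTR lungs, against -6.96 and -6.83 in WT PBS lungs, where 0 of 2 arrays were well above background. In the main processing it was at least 2.93-fold higher in the ARF-DTR lungs (adjusted p = 0.00696). That bound does not hold with normexp, where its change of 2.77 was 0.46. The Col28a1 call was lost without WT PBS replicate 1, which leaves 1 WT PBS sample, and adjusted p was 0.0106 with no filter on dim probes.

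In WT mice, 0 of 35 collagen genes passed in limma for DT against PBS (2 samples each), and 0.18% of all genes were called. At an unadjusted p under 0.05 there were 4 collagen genes, against 3256 of all 25606 genes. The smallest adjusted p belonged to Col8a2, with levels of 0.09 and -0.0048 in WT DT lungs, against 0.71 and 0.53 in WT PBS lungs. The samples did not overlap, and the change was -0.58 ± 0.11 (adjusted p = 0.0597), beside -0.64 in ARF-DTR mice. Among the type IV chains the WT changes were 0.15 ± 0.15 for Col4a1, 0.21 ± 0.16 for Col4a2, 0.22 ± 0.13 for Col4a3 and 0.31 ± 0.11 for Col4a5. Col17a1 was at -2.61 and -2.56 in WT DT lungs, against -2.01 and -2.23 in WT PBS lungs, a change of -0.47 ± 0.16 (adjusted p = 0.242). Col28a1 split the WT DT pair, at -4.92 and -6.97.

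The difference between the DT responses of the genotypes, tested as an interaction, passed in limma for 0 of 35 collagen genes, and 2.1% of all genes were called. At an unadjusted p under 0.05 there were 2 collagen genes, against 5443 of all 25606 genes. Those 2 were Col9a2, at -1.04 ± 0.29 (adjusted p = 0.0784), and Col8a1, at -0.48 ± 0.19 (adjusted p = 0.162). For Col8a2 the difference was -0.06 ± 0.14, for Col4a1 0.24 ± 0.18, for Col4a3 0.12 ± 0.16 and for Col4a5 0.00 ± 0.14. The test crosses the slides, and with normexp the dim genes Col9a1, Col15a1 and Col28a1 passed, all with a higher change in ARF-DTR mice. With normexp 1999 of all 25606 genes passed, 1613 of them with a higher change. Col9a1, Col15a1 and Col28a1 were well above background on 0 of the WT arrays, so they entered the tests only through ARF-DTR arrays.

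**Figure D5:**
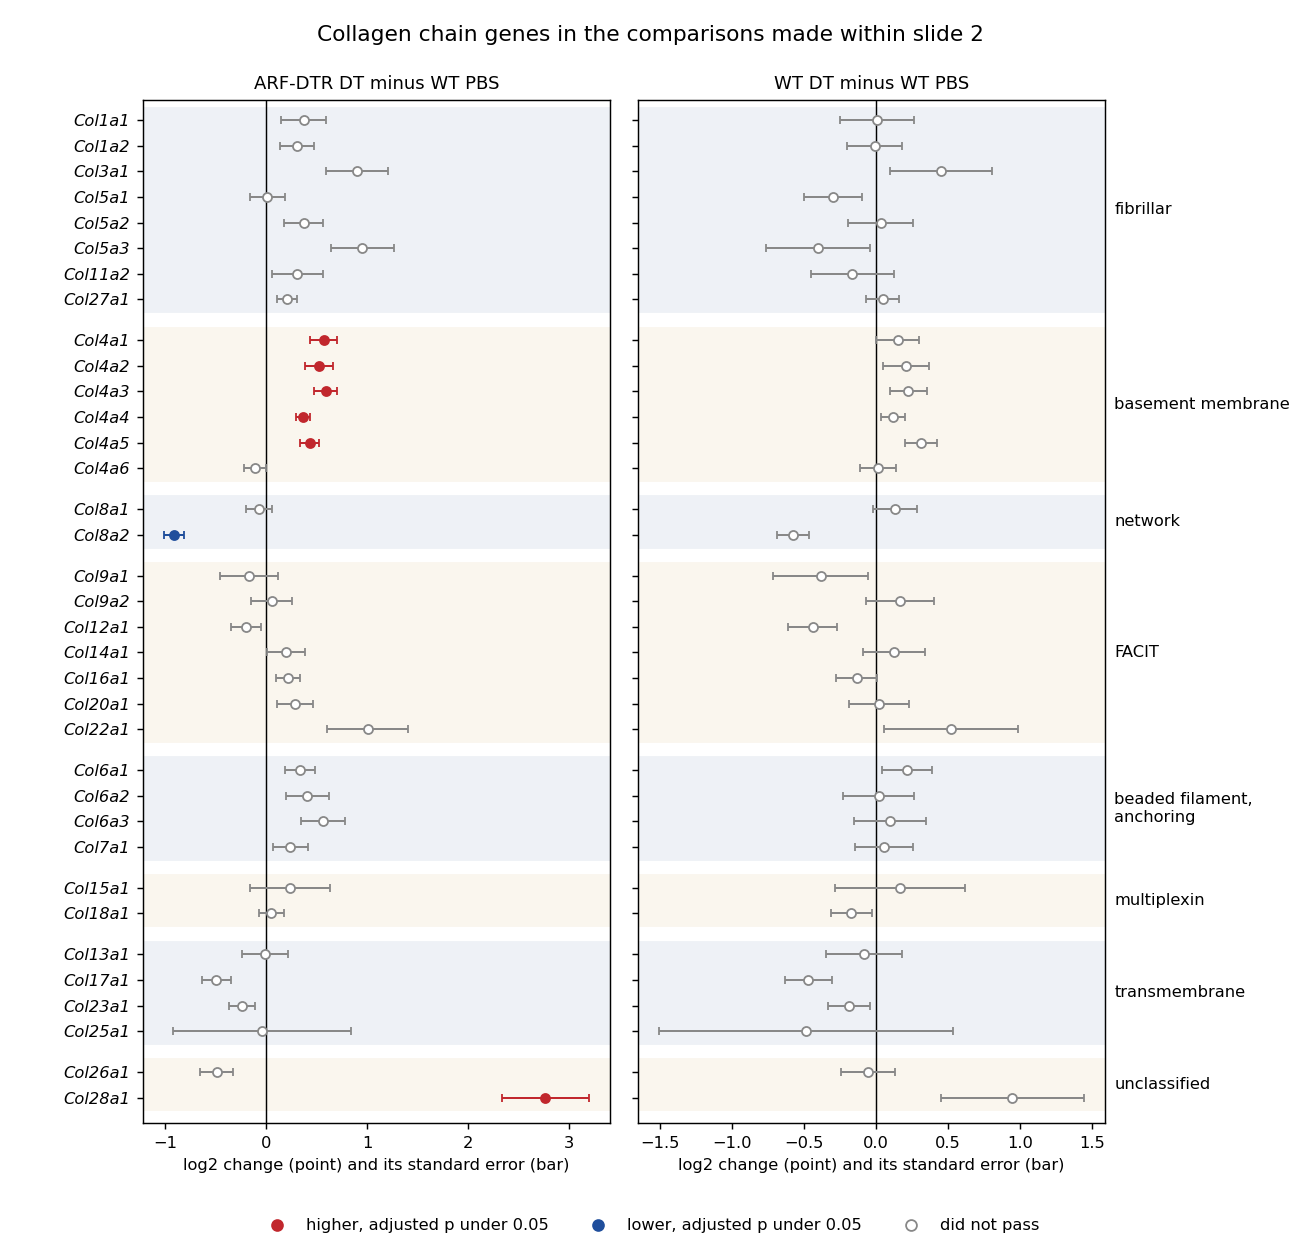
Log2 change of the 35 collagen genes, grouped by class, in the comparisons within slide 2, ARF-DTR DT minus WT PBS lungs (left, 4 and 2 samples) and WT DT minus WT PBS lungs (right, 2 samples each). Points are changes from the limma fit, bars are standard errors, and filled points passed an adjusted p of 0.05. On the left 6 genes are higher and 1 lower, and on the right 0 genes passed.

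Against WT DT lungs, also on slide 2, the DT-treated ARF-DTR lungs had 0 of 35 collagen genes past the threshold in limma, and 0.89% of all genes were called. At an unadjusted p under 0.05 there were 10 collagen genes, against 3991 of all 25606 genes. In the main processing Col28a1 was at least 3.00-fold higher (adjusted p = 0.066). That bound does not hold with normexp, where its change of 1.82 was 0.42 (adjusted p = 0.111). Col4a1 differed by 0.42 ± 0.13 (adjusted p = 0.142). Col5a3, a type V chain, differed by 1.36 ± 0.31 (adjusted p = 0.0623).

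DT-treated 12-month ARF-DTR lungs were also set against the 2-month lungs, across the slides. There 14 collagen genes were lower and 1 higher, with 30.7% of all genes called, 15.9% lower and 14.8% higher. With arrays scaled to their medians 8 collagen genes were lower and 1 higher, against 2552 lower and 4873 higher among all 25606 genes. Col1a1 fell by 1.05 ± 0.18 (adjusted p = 0.00102) and Col1a2 by 0.55 ± 0.14 (adjusted p = 0.00831). Col1a1 had levels of 3.05, 2.59, 2.95 and 2.86 in DT lungs and Col1a2 of 4.82, 4.42, 4.80 and 4.66, all below the 2-month samples. Col4a1, Col4a2, Col4a3, Col4a4 and Col4a5 changed by -0.22, -0.23, -0.13, -0.09 and -0.09, and 0 of these 5 passed. The other genes that fell included Col5a1 (-0.76), Col6a3 (-0.74), Col18a1 (-0.44), Col7a1 (-0.43), Col23a1 (-0.38) and Col4a6 (-0.29).

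Between the genotypes given PBS, again across the slides, 6 collagen genes were higher and 0 lower in ARF-DTR than in WT lungs, with 23.6% of all genes called, 10.9% higher and 12.7% lower. They were Col12a1, Col9a2, Col6a3, Col22a1, Col28a1 and Col4a4, or 17.1% of the collagen genes. Col12a1 and Col9a2 are the genes that separated the slides, DT-treated ARF-DTR arrays included. Slide and genotype cannot be told apart in this comparison. Col22a1 was well above background on 4 of 16 arrays, all from ARF-DTR mice. Like Col28a1 it entered the tests only through ARF-DTR arrays, so these 2 calls are not independent of the filter. Normexp gave 3 higher and 3 lower, against 1850 higher and 6048 lower among all 25606 genes, and left Col28a1 at -0.22. In the main processing the bound was a rise of at least 1.41-fold for Col28a1 and of at least 1.06-fold for Col22a1. It was used since 0 of 2 WT PBS arrays measured either gene well above background. The bound for Col28a1 does not hold with normexp, where the direction reversed. Col22a1 was well above background on only 2 of the ARF-DTR PBS arrays. Without WT PBS replicate 1, 2 of the genes passed, and without WT PBS replicate 2, 0.

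Genes that act on collagen were examined beside the chains. Of 21 genes for collagen modification in the endoplasmic reticulum 3 fell and 0 rose with age (median -0.11), or 14.3%, against 3.41% of all genes lower. They were Fkbp10, a chaperone needed for the hydroxylation of telopeptide lysines, by 0.51 ± 0.11, Colgalt2, a collagen galactosyltransferase, by 0.42 ± 0.10, and Fkbp7, a related prolyl isomerase, by 0.29 ± 0.07. With DT 7 rose and 3 fell in ARF-DTR lungs (median 0.10), or 47.6%, against 29.3% of all genes. Ppib, the prolyl isomerase of the prolyl 3-hydroxylation complex, rose by 0.43, and P4ha3, a subunit of prolyl 4-hydroxylase, fell by 0.49. Both followed the slide, WT lungs included, with Ppib between 4.85 and 5.18 on slide 2 and between 4.49 and 4.78 on slide 1, and P4ha3 between -2.52 and -2.21 on slide 2 and between -2.05 and -1.69 on slide 1. Of all genes 9.93% separated the slides in this way.

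Of 18 genes for secretion, processing and crosslinking 3 fell and 0 rose with age (median -0.26), or 16.7%, against 3.41% of all genes lower. Adamts2 and Adamts14, the proteases that remove the amino-terminal propeptide of fibrillar procollagens, fell by 0.63 ± 0.16 and 0.62 ± 0.13, and Pcolce2, an enhancer of carboxy-terminal processing, by 0.25 ± 0.07. With DT 1 rose and 1 fell, or 11.1%, against 29.3% of all genes. Bmp1, the carboxy-terminal procollagen protease, rose by 0.27, and Pcolce2 fell by 0.48. Pcolce2 followed the slide, at 4.66 to 5.16 on slide 2 and 5.20 to 5.63 on slide 1.

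Of 21 fibril-associated proteoglycans and matrix partners 5 fell and 0 rose with age (median -0.24), or 23.8%, against 3.41% of all genes lower. Postn, a matricellular protein that binds type I collagen, fell by 0.72 ± 0.12, Aspn, a small leucine-rich proteoglycan, by 0.47 ± 0.10, and Nid1 and Lamc1, which build basement membranes with type IV collagen, by 0.57 ± 0.10 and 0.41 ± 0.09. With DT Sparc, a collagen chaperone and matrix binder, rose by 0.42, and Prelp, a proteoglycan that anchors fibrils to basement membranes, fell by 0.96, while 9.52% of this list and 29.3% of all genes were called. Prelp followed the slide, at -1.54 to -0.95 on slide 2, WT PBS lungs included, and -0.58 to 0.26 on slide 1. Of 12 collagen receptors and uptake genes 2 fell and 0 rose with age (median -0.14), or 16.7%, against the same 3.41%. They were the receptor tyrosine kinase gene Ddr2, by 0.32 ± 0.07, and the integrin gene Itga1, by 0.30 ± 0.07. With DT 1 rose, Itgb1 by 0.21, and 2 fell, Itga11 by 0.57 and Lair1 by 0.41, or 25% of the list.

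Markers of the cells that make collagen were read with the same fit. With age 2.73% of all genes were called higher and 3.41% lower. With age 2 of 12 fibroblast markers fell and 0 rose (median -0.27), Npnt by 0.56 and Mfap5 by 0.57, and their mean level ran between 2.86 and 3.21 in 12-month PBS lungs, against 3.31 and 3.43 in 2-month lungs. Of 9 endothelial markers 3 fell and 0 rose (median -0.27), and of 7 pericyte markers 2 fell and 0 rose, Pdgfrb by 0.66 and Trpc6 by 0.52. Of 6 mesothelial markers 4 rose and 0 fell, including Wt1 by 1.81 and Bnc1 by 1.50. The 8 smooth muscle markers had a median of -0.51 with 0 calls in limma and 4 at an unadjusted p under 0.05, against 5124 of all 25606 genes. The 8 cardiac muscle markers had 0 calls and 0 at an unadjusted p under 0.05, and their mean level ran from -0.81 to 4.01 among the 2-month samples. The part of these cell types in the collagen changes was not tested.

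The windows around the start sites of 28 of the 35 collagen genes, 31 windows in all, were searched on both strands for short motifs. CCAAT was found in 35.5% of the windows, against 37.4% of all 32851 RefSeq windows of the same length. TATAAA was found in 12.9%, against 13.6%. GGGCGG, the GC box, was found in 61.3%, against 35.7%. Col1a1 was not among the genes with a window, so the Col1a2 window (GRCm38.p6, chr6:4505368-4505667, plus strand) is shown for the type I chains. The CCAAT and GGGCGG matches of either strand are in capitals.
Col1a2 start region: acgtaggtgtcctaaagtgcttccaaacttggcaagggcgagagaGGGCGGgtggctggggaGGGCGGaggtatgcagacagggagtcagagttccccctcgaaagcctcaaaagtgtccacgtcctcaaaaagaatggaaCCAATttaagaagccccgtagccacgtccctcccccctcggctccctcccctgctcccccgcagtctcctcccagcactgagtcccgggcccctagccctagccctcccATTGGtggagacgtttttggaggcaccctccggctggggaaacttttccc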

How the data were processed

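Total RNA of homogenised lung was labelled with Cy3, per the labels' protocols, and hybridised to single-colour arrays designed on mm9, per the file headers. Images were read with Agilent Feature Extraction 10.10.1.1, per the submitters' processing notes. The deposited scanner files hold intensity values, of which the background-subtracted signal was used. The authors' deposited series table holds log2 values and matched this scale within 0.05 for at least 99.9% of probes of each array.

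Control spots and outlier spots were left out, spots of a probe averaged, and log2 signals scaled to the array 75th percentile. Of 55681 probes, 37046 were well above background on 4 or more arrays, and the brightest stood for each of 25606 genes. The test was limma 3.58.1 (R 4.3.3), two-sided, with 1 mean per group over all 16 arrays and a Benjamini-Hochberg threshold of 0.05. The fit was tested on simulated data.

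Groups came from titles, source names and treatments. The description of WT PBS replicate 1 names DT, and those of the WT DT samples leave it out. The collagen members, gene lists and the rule for named genes (per class up to 4 with the smallest p with age and 2 with DT, and up to 4 in each other DT comparison) were chosen with earlier results of these data known. Alternatives were normexp (offset 50), median and quantile scaling, other filters and probe summaries, the series table, trended variances, smaller fits, a replicate block and leaving out single arrays.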

Additional observations from a re-analysis of the deposited data

Results flagged for a closer look

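Single samples that stood apart from the other 3 of their group by Dixon's criterion were sought among the collagen genes, and 4 of 105 groups of 4 samples were found, where chance gives about 1 in 20. Col25a1, a transmembrane collagen known from neurons, was at -1.69 in PBS replicate 3 of the ARF-DTR mice, against -5.55 to -5.32 in the other 3. Its probe was well above background on 6 of 16 arrays, and its changes did not pass in any comparison. Col9a2 was at -4.30 in DT replicate 1, against -3.87 in the other 3. Col12a1 was at 0.333 in 2-month replicate 3, against 0.618 to 0.653 in the other 3. Col16a1 was at 2.88 in DT replicate 3, against 2.67 to 2.70 in the other 3.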

How the results depend on the processing

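Of 42 called changes of the collagen genes described in full, 17 passed under every alternative run. With age these were Col1a1, Col1a2, Col4a1, Col4a2, Col4a3 and Col4a5, and with DT in ARF-DTR mice Col4a3, Col4a5, Col8a2, Col9a2 and Col12a1. The direction reversed once, for Col28a1 in ARF-DTR PBS against WT PBS, at -0.22 with normexp. The calls with age (12) ran between 9 and 14 under other processing and between 8 and 14 with 1 array left out. With DT (10) they ran between 7 and 12, and between 7 and 10. For DT against 2-month (15) there were 9 with median scaling, and 10 to 15 with 1 array left out. For ARF-DTR DT against WT PBS (7) there were 2 with only the groups compared or only slide 2, and 1 to 7 with 1 array left out, 1 without WT PBS replicate 1, 2 without WT PBS replicate 2 and 4 without DT replicate 4. For the genotypes with PBS (6) there were 0 to 5 with 1 array left out, 3 without ARF-DTR PBS replicate 2, 2 without WT PBS replicate 1 and 0 without WT PBS replicate 2. Counts of 0 became 3 for the interaction with normexp, 5 for ARF-DTR DT against WT DT without the filter on dim probes, and 1 there without WT DT replicate 1, with 0 to 1 over its arrays left out. For WT DT against PBS 1 passed without WT DT replicate 2, again 0 to 1 over the arrays left out. Over all genes, normexp called 1999 of 25606 for the interaction, against 539 in the main processing. Without the filter on dim probes 3560 of 34836 genes were called for ARF-DTR DT against WT DT, against 228 of 25606 in the main processing. The causes were not tested. Over all genes, 962 were called with age on slide 1 alone, against 1570 with all arrays, and 417 for ARF-DTR DT against WT PBS on slide 2 alone, against 1405, with fewer samples in each fit.

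The replicate numbers gave no clear sign of pairing. Deviations of same-numbered samples correlated between -0.20 and 0.08 for age and between -0.06 and 0.33 for DT. So few pairs cannot exclude a pairing. With a replicate block the collagen calls were 13 with age, 12 with DT, 15 for DT against 2-month and 8 for ARF-DTR DT against WT PBS, and for the genotypes with PBS they were 10, all higher. No fit with slide as a term could be made, since each group lay on 1 slide, and fits within 1 slide gave no value for DT against PBS in ARF-DTR mice, DT against 2-month, the interaction or the genotypes.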

Other observations

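Collagen genes with several kept probes gave further values. Both Col6a2 probes changed by -0.57 and -0.56 with age, and the second of them passed when all kept probes were tested (adjusted p = 0.0209) while the brightest did not (0.0853). Col14a1 changed by 0.20 with DT at its brightest probe and by 0.60 at the other (adjusted p = 0.0486). The 3 Col23a1 probes changed by -0.34, -0.36 and -0.38 with age, with adjusted p of 0.0851, 0.0539 and 0.0721. For Col26a1 (0.14 and -0.23) and Col20a1 (0.16 and -0.04) the probes differed in direction with age, and none passed.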
